A study of Drosophila melanogaster with 12 samples.

Results

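The fourth chromosome of Drosophila carried 656 clusters of 3′ end reads that name 1 gene, out of 32302 clusters listed for all chromosomes. A cluster is a short run of bases at which reads ended, and 436 of the 656 (66.5%) spanned a single base. The members were all rows of chromosome 4 that name exactly 1 gene, with each position taken once, and they named 86 genes. Only 2 further rows of this chromosome named several genes. The reads came from heads of adult flies, males and females, in which RNA bound by the RNA-binding protein Pumilio (Pum) was recovered after UV cross-linking with an antibody against Flag (xRIP) and sequenced at its 3′ ends. There were 12 libraries, 3 in each of 4 groups. Flies labelled pum carried a C-terminal Flag-HA tag at the endogenous pumilio locus, flies labelled w118 were untagged w1118 flies, and input RNA as well as IP RNA was sequenced for both. No library can be told from another in the deposited table, so reads are given only as their sum over all 12 libraries, named pooled reads. Pooled reads mix input with IP and tagged with untagged flies, so they are not expression levels, and no value below has a replicate error or a test over samples.

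The fourth chromosome is the smallest of the fly genome. It is gene-rich but packed in chromatin that resembles heterochromatin, with long introns full of repeats and little or no meiotic crossing over, and its genes are coated by a protein of their own, POF. The 3′ end of an mRNA is set where the nascent transcript is cut and given a poly(A) tail, usually a short distance after a hexamer such as AATAAA. In 3′ end sequencing a primer of T bases starts on the tail, and it can also start on a run of A inside a transcript, which is why positions before genomic A runs are removed during processing.

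The head label was checked with marker genes over the whole table. All 14 markers of neurons, photoreceptors, glia and fat body had pooled reads, from 2164 for Lsp2 to 481444 for Yp1, with 465493 for ninaE, the main rhodopsin. Of 12 markers of ovary, gut and testis, 6 were at 0 and the other 6 had between 119 and 7896 pooled reads. Pooled reads summed to 1168075 over chromosome 4.

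The most read cluster at an annotated end is shown for 7 genes that the results turn on, as the 30 bases that end at its 3′-most base, on the strand of the gene and from the RefSeq sequence of dm6. Capitals mark the poly(A) signal, AATAAA or ATTAAA where present and otherwise a variant, and a sequence without capitals held none of the 12 hexamers searched in these bases.
apolpp, chr4:1076185-1076214, plus strand: attAATAAAaacttaatatcacaaaacttt
RpS3A, chr4:66195-66224, minus strand: atacatttctctacaaattgCATAAActat
ATPsynbeta, chr4:1034544-1034573, plus strand: aaacattacggtatgaATTAAAagcaaaat
Gat, chr4:635323-635352, plus strand: gtcaAATAAAttgaatatctatccacacaa
CG32017, chr4:1137825-1137854, minus strand: catacattatattgtattgcaaactgtatt
unc-13, chr4:870910-870939, minus strand: tatattacgtaaatcgtggaaataataatt
bt, chr4:776053-776082, plus strand: ataaatgtaaaatttatTATAAAagtttta
These ends held 110096 pooled reads in apolpp, 250186 in RpS3A, 104185 in ATPsynbeta, 19929 in Gat, 24485 in CG32017, 20212 in unc-13 and 2322 in bt.

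The most read cluster inside coding sequence is shown for 7 genes, since such clusters set this chromosome apart. Here the first 20 bases end at the 3′-most base of the cluster and the 10 bases that follow it in the genome are in capitals.
apolpp, chr4:1069038-1069067, plus strand: tacgaacaagacaaagaaatAAAAAAAAGT
unc-13, chr4:898516-898545, minus strand: ttaagtaaactaatctcacaAAAAAAAAAA
bt, chr4:751266-751295, plus strand: ttcaaaagtacataatagaaAAAAAGAATA
CaMKII, chr4:1045149-1045178, minus strand: tcttgaagacgatgacataaAAGGTAAGTA
Cadps, chr4:1254002-1254031, plus strand: ttagctgcgcaaacatgataAAATGGATAA
Gyf, chr4:855618-855647, minus strand: accatttttaagaacaaacaAAAAAAGATT
MED26, chr4:780150-780179, minus strand: agaaaatcagatatgaagcgAAGAAAAAGA
Of the 10 bases after the site, 8 were A in apolpp, bt and MED26, 10 in unc-13, 7 in Gyf, 6 in Cadps and 5 in CaMKII. These clusters held 64948 pooled reads in apolpp, 11294 in unc-13, 16878 in bt, 14931 in CaMKII, 3605 in Cadps, 2428 in Gyf and 496 in MED26.

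Clusters inside coding sequence made up 41.5% of the clusters of chromosome 4 (272 of 656, 95% Wilson interval 37.7 to 45.3%). On 2L, 3L, 3R and X the same share was 8.18%, 7.25%, 5.91% and 5.46%. Clusters within 50 bases of an annotated transcript end made up 22.9% (150 of 656, 19.8 to 26.2%), against 49.0 to 58.8% on the other chromosomes. The share elsewhere in a 3′ UTR was 22.4% (147 clusters) and lay within the 21.3 to 29.4% seen on the others. The remaining clusters of chromosome 4 were 26 in 5′ UTRs, 30 in exons of noncoding genes, 25 up to 500 bases downstream of a gene, 4 in introns and 2 outside the gene they name.

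**Figure D1:**
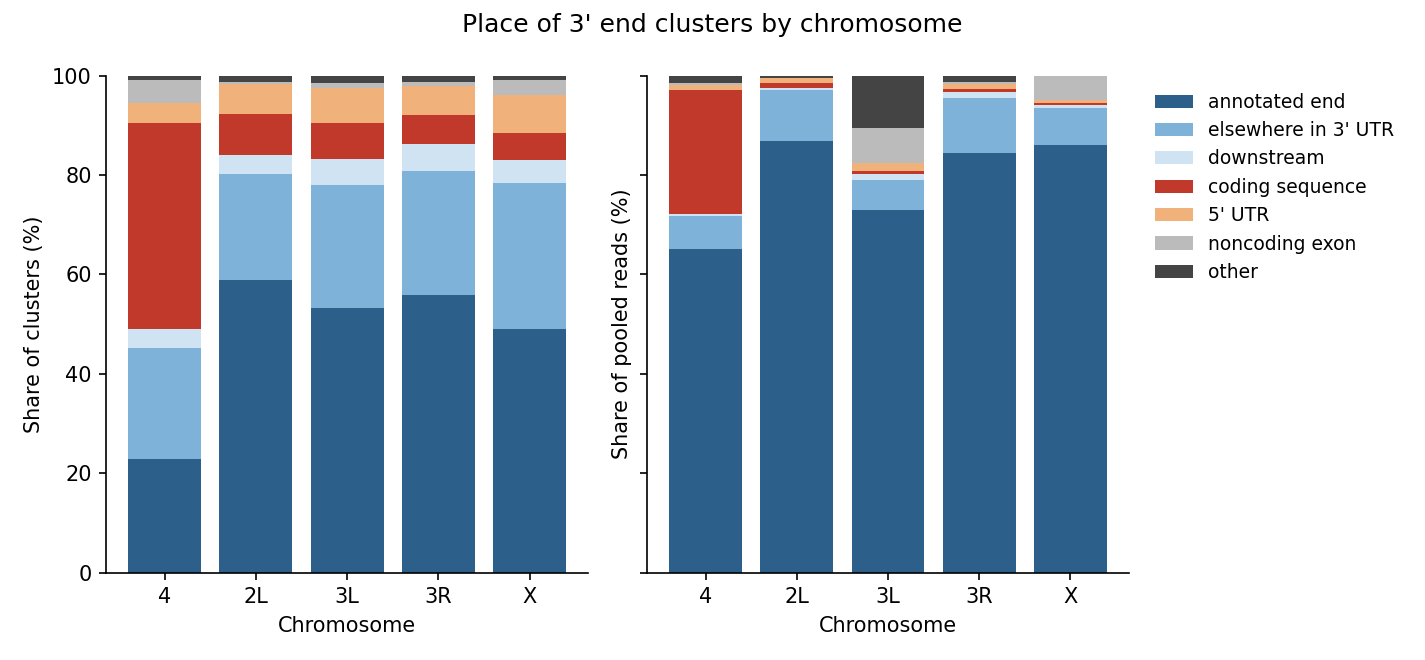
Place of the clusters by chromosome, as the share of clusters (left panel, %) and the share of pooled reads (right panel, %), with each bar split by place. Coding sequence (red) takes 41.5% of clusters and 25.0% of pooled reads on chromosome 4, and at most 8.18% and 1.04% on the others.

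By pooled reads, unlike by clusters, annotated ends came before coding sequence. Clusters at annotated ends held 65.0% of the pooled reads of chromosome 4 and clusters in coding sequence held 25.0%, where the coding share was 0.364 to 1.04% on the other chromosomes. A single gene, apolpp, held 55.2% of the coding reads of chromosome 4, and without it the coding share of the remaining reads was 14.7%. Single clusters were read less deeply inside coding sequence, with a median of 181 pooled reads, than at annotated ends, with a median of 460.

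Clusters in coding sequence were spread over many genes. Of the 75 protein-coding genes with a cluster, 49 had one in coding sequence (65.3%, 54.1 to 75.1%), against 10.6 to 12.7% of such genes on the other chromosomes. The 3 genes with the most clusters, apolpp, unc-13 and bt, held 133 of the 272 coding clusters (48.9%), and the other 139 lay outside them. Without these 3 genes the coding share of clusters was 28.3%, still above the range of the others. Per 1000 coding positions of genes with a cluster, chromosome 4 had 1.10 clusters, or 0.711 without the 3 genes, and the others had 0.104 to 0.143. In 3′ UTR positions more than 50 bases from an annotated end there were 1.41 clusters per 1000 positions on chromosome 4, or 1.29 without the 3 genes, and 1.18 to 1.40 on the others.

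Divided into 3 parts of equal length from the start codon, the coding sequence of chromosome 4 genes held 76, 82 and 114 clusters. The median position was 60.4% along the coding sequence, and 50.2 to 55.9% on the other chromosomes. Coding clusters were of a single base in 73.2% of cases on chromosome 4 and in 79.6 to 83.9% elsewhere.

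The base composition of coding sequence also differed between the chromosomes. Coding positions of genes with a cluster were A in 32.6% of cases on chromosome 4, against 24.3 to 25.9% on the others, and A or T in 58.3%, against 43.7 to 46.6%. Lysine, whose codons are AAA and AAG, was written as AAA in 63.0% of 5085 lysine codons on chromosome 4 and in 24.4 to 30.9% on the others, while lysine itself took 6.31% of codons, against 5.12 to 5.82%. The 10 bases after a coding position held 3.26 A on average, against 2.43 to 2.59. After a cluster in coding sequence they held 5.50 A on chromosome 4 and 5.22 to 5.40 on the others. The stated processing removes positions before genomic A runs on every chromosome, except near annotated ends, which limits this count from above. Its closeness across chromosomes is therefore partly set by the processing, and no conclusion is drawn from it. Positions with counts near these were more frequent on chromosome 4. Positions followed by exactly 6 A among 10 bases made up 5.75% of coding positions on chromosome 4 and 1.58 to 2.21% on the others.

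Clusters were also denser on chromosome 4 at the same A count. With 6 A among the next 10 bases, there were 8.38 clusters per 1000 coding positions (119 clusters, exact Poisson interval 6.94 to 10.0), against 2.73 to 3.59 on the others. With 5 A the rate was 2.45 (78 clusters, 1.94 to 3.06), against 0.455 to 0.635. With 0 to 2 A it was 0.0487, from 4 clusters, against 0.00605 to 0.00948. Without apolpp, unc-13 and bt the rates on chromosome 4 were 6.03 at 6 A and 1.45 at 5 A, both above the range of the other chromosomes. Coding clusters with 5 or 6 A numbered 197 of 272 (72.4%).

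**Figure D2:**
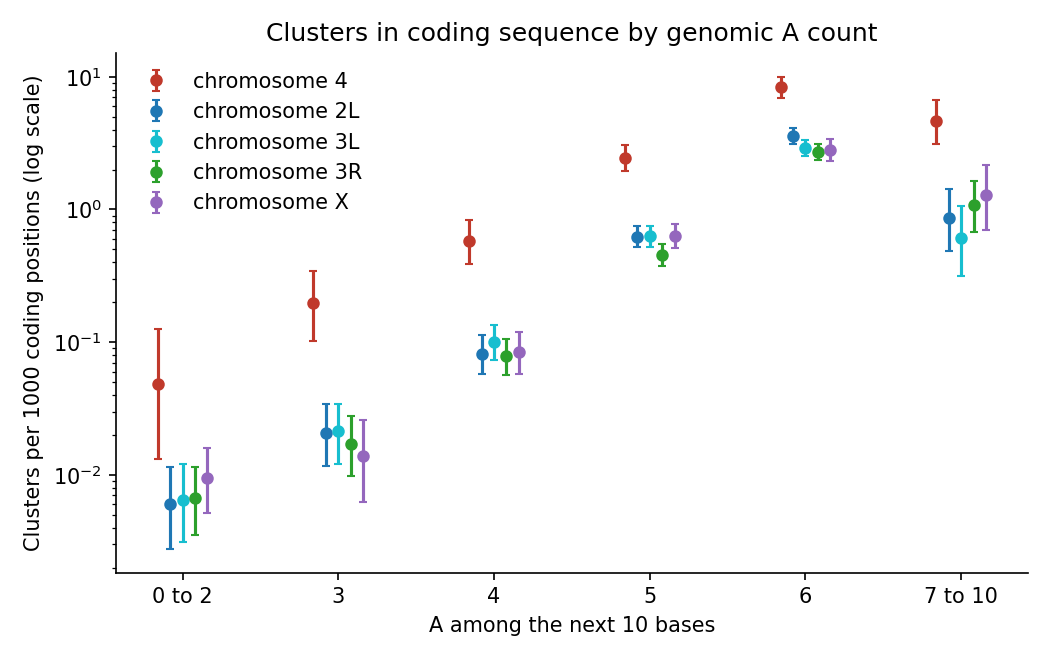
Clusters per 1000 coding positions (log scale) against the number of A among the next 10 genomic bases, by chromosome, with exact 95% Poisson intervals as bars. Chromosome 4 (red) lies above the other chromosomes in every class, with 8.38 against 2.73 to 3.59 at 6 A.

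Read depth moved with these rates, so genes were also divided by the pooled reads at their annotated ends. Among genes with at least 1000 but under 10000 such reads, the rate at 6 A was 8.06 on chromosome 4 (58 clusters, 6.12 to 10.4) and 2.89 to 4.39 on the others. Among the 9 genes with 10000 or more, it was 22.1 (47 clusters, 16.3 to 29.4) and 5.51 to 14.1, but apolpp and unc-13 held 39 of the 47 clusters. Without them the rate was 17 from 8 clusters, with an interval of 7.33 to 33.5 that reached into the range of the others. Among genes under 1000, it was 2.87 (14 clusters, 1.57 to 4.81) and 0.995 to 1.81, and the interval of chromosome 4 reached into the range of the others. At 5 A, the rate on chromosome 4 was above the others in each of the 3 classes, at 0.904, 1.74 and 8.67, where their highest values were 0.381, 0.806 and 3.84. In the last class apolpp and unc-13 held 35 of the 40 clusters at 5 A, and without them the rate was 4.54, with an interval of 1.48 to 10.6 that reached below 3.84. The part of base composition and of read depth in the coding share was not tested.

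The deposited list still held clusters directly before an A stretch, a run of at least 6 A or 7 A among 10 bases, although the stated processing removes such positions away from annotated ends. On chromosome 4 they were 80 of all 656 clusters (12.2%), annotated ends included, against 15.2 to 21.3% on the others, when the bases after the 3′-most base of each cluster are read. In coding sequence these were 36 of 272 (13.2%, 9.72 to 17.8%), against 4.15 to 7.04% on the others, and they held 49.8% of the coding reads. Clusters not before an A stretch still held 12.6% of the pooled reads of chromosome 4 inside coding sequence, against 0.320 to 0.716% on the others. With all such positions left out, the coding share of clusters was 41.0% on chromosome 4.

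A run of A can also arise only after splicing, which the genomic sequence does not show. Of the coding clusters of chromosome 4, 16 lay within 10 bases before the end of an exon, and 9 of the 16 preceded an A stretch in a spliced transcript but not in the genome. They held 6.72% of the coding reads. The highest of the 9 was the CaMKII cluster shown above, which lay 3 bases before an exon end and held 14931 of the gene's 18589 pooled reads (80.3%). CaMKII (FBgn0264607, chr4:1035288-1053703) is the calcium and calmodulin-dependent kinase of synaptic plasticity. Its transcripts continued in 5 ways after this exon, and the one with the most A is shown with the spliced bases in capitals, 8 of 10 being A.
CaMKII, spliced: tcttgaagacgatgacataaAAGATAAAAA
On the other chromosomes 14 to 22 coding clusters had an A stretch only in a spliced transcript, with 3.43 to 6.52% of coding reads. As a share of coding clusters this was 3.31% on chromosome 4, against 3.36 to 6.07% on the others. Clusters within 10 bases before an exon end were 5.88% of coding clusters on chromosome 4, against 6.24 to 11.9%. Both shares were below the range of the others.

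A poly(A) signal stood before 59.0% of all clusters of chromosome 4 (387 of 656, 55.2 to 62.7%), against 65.2 to 70.4% on the others. At annotated ends the share was 80.7% (121 of 150), near the 81.0 to 85.5% of the others. In coding sequence it was 37.1% (101 of 272), against 13.2 to 18.5%. Hexamers were frequent in this coding sequence in any case, since 24.7% of all its positions had one in the 40 bases before them, against 4.59 to 7.28% on the others. Elsewhere in 3′ UTRs, 103 of 147 clusters had a signal (70.1%), against 56.0 to 62.0% on the others, so chromosome 4 was higher there. Downstream of genes, 22 of 25 clusters had a signal (88%), against 81.9 to 87.7%.

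Genes of chromosome 4 had more clusters. The median was 4.5 clusters per gene (n = 86 genes, quartiles 3 and 9, 95% interval of the median 4 to 6), and it was 2 on each of the other chromosomes, with an upper quartile of 4. Genes with a single cluster were 9 of 86 (10.5%), against 32.6 to 36.1%, and genes with 10 or more were 21 (24.4%, 16.6 to 34.5%), against 4.05 to 6.01%. Counting only clusters at annotated ends, in 3′ UTRs or downstream, the median was 3 on chromosome 4 and 2 on the others.

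**Figure D3:**
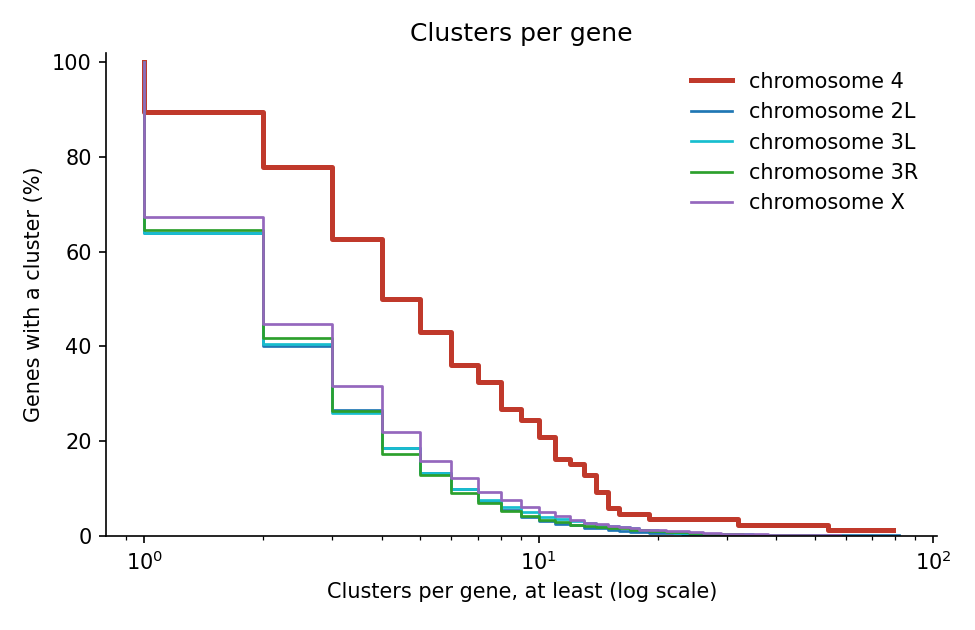
Share of genes (%) with at least the number of clusters on the x axis (log scale), by chromosome. On chromosome 4 (red), 24.4% of genes have 10 or more clusters, and on the others 4.05 to 6.01%.

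Genes of this chromosome were longer, and length moved with the number of clusters. Protein-coding genes with a cluster had a median length of 10484 bases, against 2753 to 3445, and a median coding length of 2487, against 1347 to 1464. Their longest annotated 3′ UTR had a median of 748 bases, against 269 to 498. By 3′ UTR length the median number of clusters on chromosome 4 was 3 (2 to 5) against 2 for 3′ UTRs under 300 bases (16 genes), 4 (3 to 7) against 2 for 300 to under 1000 bases (25 genes) and 7 (5 to 11) against 4 to 5 for 1000 bases or more (34 genes). By coding length it was 5 (3 to 8) against 2 under 1500 bases, 4 (3 to 6) against 2 for 1500 to under 3000 bases and 6.5 (4 to 13) against 3 to 4 for 3000 bases or more. By pooled reads at annotated ends it was 4 (2 to 6) against 1 to 2 under 1000 reads, 6 (4 to 9) against 3 from 1000 to under 10000 and 7 (3 to 54) against 4 to 5 for 10000 or more. The median of chromosome 4 was the higher in all 9 classes, but its interval reached a median of another chromosome for the shortest and the longest 3′ UTRs, the longest coding sequences and the lowest and highest read classes.

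Neighbouring clusters of a gene lay farther apart in the genome. Gaps were counted in genomic bases and include any intron between the clusters, so they are not distances along the transcript. The median gap was 171.5 bases on chromosome 4 (n = 570 gaps, 125 to 241), against 57 to 90. Gaps under 15 bases made up 17.4% (14.5 to 20.7%), against 27.1 to 31.3%, and gaps over 1000 bases 22.1%, against 13.1 to 15.1%. Among clusters at annotated ends, in 3′ UTRs or downstream alone, the median gap was 58.5 bases and fell inside the 30 to 59 bases of the others.

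Pooled reads per gene had a median of 2952 on chromosome 4 (2104 to 5391), against 1486.5 to 1719. The most read cluster of a gene held a median of 63.4% of its pooled reads (59.0 to 77.9%), against 84.2 to 91.1%. Among genes with 2 or more clusters alone it held 60.4% (54.5 to 67.7%), against 67.3 to 73.2%. The most read cluster was at an annotated end in 58 of the 86 genes and in coding sequence in 8, and 14 genes had no cluster at an annotated end.

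Reads were concentrated in 2 genes. apolpp, which encodes the precursor of the lipid carrier apolipophorin made in the fat body, had 278926 pooled reads and RpS3A, a ribosomal protein of the small subunit, had 251772, together 45.4% of the chromosome. apolpp (FBgn0087002) lies at chr4:1060969-1077273 on the plus strand and RpS3A (FBgn0017545) at chr4:65225-67207 on the minus strand. Their patterns differed. RpS3A had 5 clusters, with 99.4% of its reads in the 1 cluster shown above. apolpp had 79 clusters, the most of any gene, with 39.5% of its reads at the end shown above and 57.9% in 71 coding clusters. Those 71 clusters had between 30 and 64948 pooled reads, a median of 304 and a median distance of 67 bases from one to the next, and 6 of them, directly before A stretches, held 52.1% of the gene's coding reads.

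unc-13 (FBgn0025726, chr4:867824-912331, minus strand) and bt (FBgn0005666, chr4:724400-776474, plus strand) came next by number of clusters. unc-13, a protein that primes synaptic vesicles for release, had 54 clusters and 68155 pooled reads, with 35 clusters and 51.5% of reads in coding sequence and 14 clusters elsewhere in its 3′ UTR. Its 35 coding clusters had 29 to 11294 pooled reads with a median of 171, and 7 before A stretches held 68.4% of its coding reads. bt encodes projectin, a giant elastic muscle protein related to titin. It had 32 clusters and 34494 pooled reads, of which 91.1% lay in 27 coding clusters, and its most read cluster was the coding one shown above with 48.9% of its reads. Of its coding reads, 80.7% lay at 5 clusters before A stretches.

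**Figure D4:**
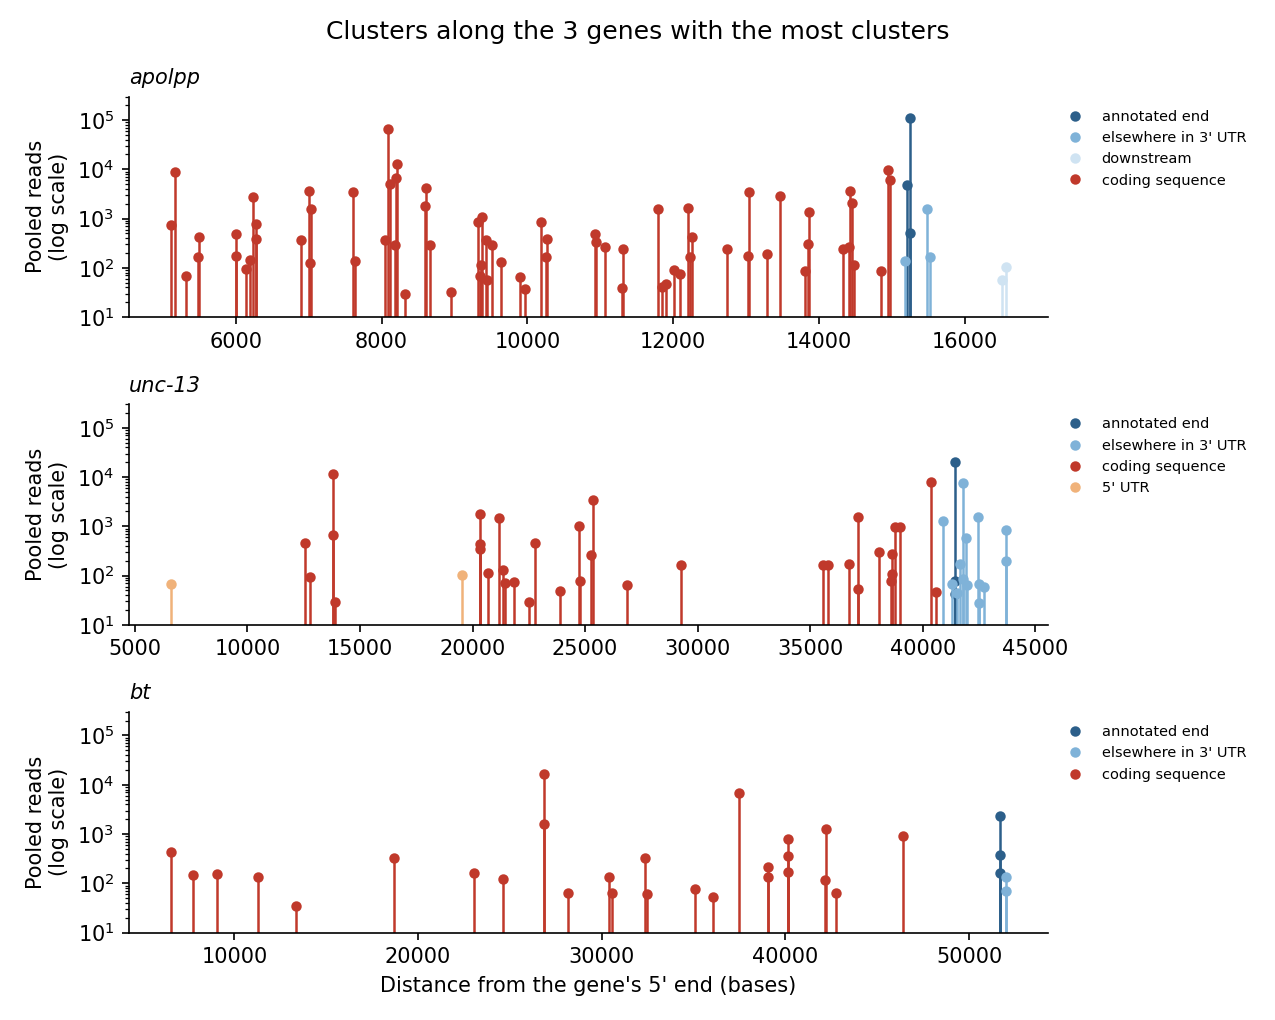
Clusters along apolpp, unc-13 and bt, with the distance of each from the 5′ end of the gene in bases on the x axis and its pooled reads (log scale) on the y axis, coloured by place. Coding clusters (red) lie along the coding sequence of all 3 genes, 71, 35 and 27 in number.

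The other genes among the 10 with the most clusters had 14 to 19. pan, the transcription factor TCF of the Wnt pathway, had 19 clusters and 8411 pooled reads, with 16 clusters in its 3′ UTR and none in coding sequence. The most read cluster of pan, with 1803 reads at an annotated end, was followed by 10 A among 10 bases. Tdg, a DNA glycosylase, had 16 clusters and 3281 reads, and its most read cluster, with 29.1%, lay in its 3′ UTR but not at an annotated end. eIF4G1, the scaffold of the cap-binding complex in translation, had 15 clusters and 22483 reads, with 16.5% in 8 coding clusters. Another 47.4% lay in a 3′ UTR cluster away from annotated ends. That cluster was directly before an A stretch, with 8 A among the next 10 bases. PlexA, a semaphorin receptor, had 15 clusters with 61.1% of 6689 reads in 1 of them. CG11155 had 15 clusters and 5476 reads, 6 of the clusters at annotated ends and 6 in coding sequence. ATPsynbeta, the catalytic beta subunit of ATP synthase, had 14 clusters and 129409 reads, 80.5% of them at the end shown above and 3.08% in coding sequence. gw, a core protein of microRNA silencing, had 14 clusters and 26313 reads, 63.1% at 1 annotated end and 0.319% in its single coding cluster. Many clusters thus came with coding reads in apolpp, unc-13 and bt but not in pan or gw.

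Among the 10 genes with the most pooled reads, 3 besides RpS3A had nearly all reads at 1 end, with between 2 and 7 clusters. CG32017 had 7 clusters and 26498 reads, 92.4% in the most read. ND-49, a subunit of respiratory complex I, had 2 clusters and 21140 reads, 98.3% in the most read. Gat, a GABA transporter, had 3 clusters and 20625 reads, 96.6% in the most read. At the other end of the range fuss had 62 pooled reads in 1 cluster.

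**Figure D5:**
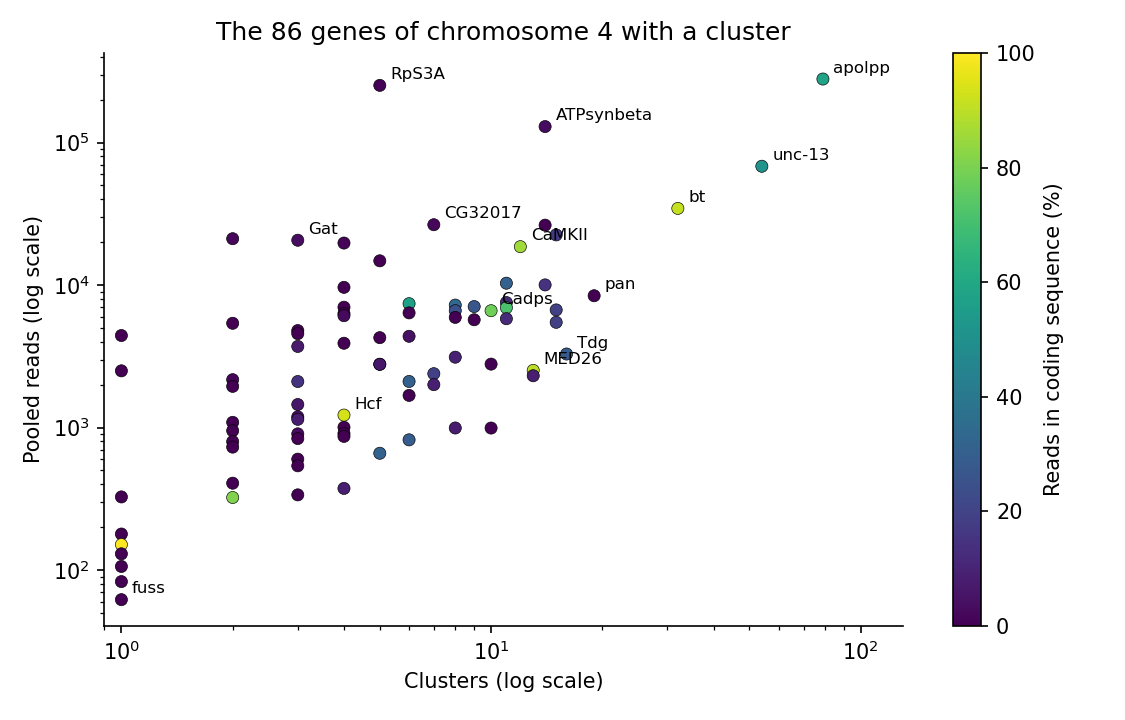
Pooled reads (log scale) against the number of clusters (log scale) for the 86 genes of chromosome 4, 1 point per gene, coloured by the share of its reads in coding sequence (%). apolpp, unc-13 and bt stand at the right with 79, 54 and 32 clusters, and RpS3A has 251772 reads in 5 clusters.

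Of the 14 genes for synapse and neuronal signalling, 13 had a cluster, with a median of 8 clusters (2 to 54) and a median of 4791 pooled reads. The list held unc-13, Cadps, Syt7, CaMKII, mGluR, Gat, Ekar, Cals, Slip1, dpr7, Eph, Ephrin, PlexA and PlexB. Their 139 clusters were in coding sequence in 41.0% of cases, beside 41.5% for the whole chromosome. However, unc-13 held 35 of the 57 coding clusters. The share in the other 12 genes was 25.9% (22 of 85), beside 28.3% for the chromosome without apolpp, unc-13 and bt. Coding clusters occurred in 10 of the 13 genes, beside 65.3% of all protein-coding genes with a cluster. Cadps, which primes dense-core vesicles, had 10 clusters and 78.1% of 6605 reads in coding sequence. Syt7, a synaptotagmin, had 10 clusters and none in coding sequence. mGluR, the metabotropic glutamate receptor, had 2 clusters and 950 reads, 95.3% of them in a 5′ UTR cluster. Ekar, a kainate-type glutamate receptor, had no cluster.

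Of the 14 transcription factors and cofactors, 13 were found on chromosome 4 and all 13 had a cluster, while Crg-1 was not found on chromosome 4. The 13 were ci, ey, toy, pan, sv, zfh2, Sox102F, onecut, fuss, pho, Mitf, Hcf and lgs. They had a median of 4 clusters (1 to 19) and 867 pooled reads, lower than the 2952 of all genes of the chromosome. Of their 67 clusters 19.4% lay in coding sequence, in 5 genes. For the whole chromosome this was 41.5% of clusters and 65.3% of protein-coding genes with a cluster. Without apolpp, unc-13 and bt, none of which is in this list, the chromosome had 28.3% of its clusters in coding sequence. pan held 19 of the 67 clusters and none in coding sequence, and the share in the other 12 genes was 27.1% (13 of 48). ey and toy, the Pax6 proteins of eye development, had 729 reads in 2 clusters and 6320 in 4, none in coding sequence. ci, the transcription factor of Hedgehog signalling, had 106 reads in 1 cluster. Hcf, a chromatin cofactor, had 4 clusters with 93.5% of 1223 reads in coding sequence.

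The 3 ligands of the TGF-beta family all had clusters, with 3117 pooled reads in 8 clusters for myo, 1189 in 3 for mav and 837 in 3 for Actbeta. In Actbeta 72.0% of reads lay in a 5′ UTR cluster. A list made for translation, energy and trafficking held RpS3A, ATPsynbeta, eIF4G1, Arf4, Arl4, Rad23, Zip102B, apolpp, gw and Gyf, and also Tdg, whose role lies in DNA repair. These 11 genes had a median of 11 clusters (3 to 79) and 14788 pooled reads. Of their 176 clusters 59.1% lay in coding sequence, beside 41.5% for the whole chromosome, and 71 of these 104 were in apolpp. The share in the other 10 genes was 34% (33 of 97), beside 28.3% for the chromosome without apolpp, unc-13 and bt. Arf4, a small GTPase of the secretory pathway, had 5 clusters and 14788 reads with none in coding sequence. In Gyf, which represses translation, 9 of 11 clusters and 71.3% of 6933 reads were coding. The list made for muscle and cytoskeleton held bt, Kif3C, Ank, Pur-alpha, Asator, Dyrk3 and Crk, not all of which are muscle or cytoskeleton genes. These 7 genes had a median of 7 clusters and 2782 reads. In coding sequence lay 42 of 70 clusters (60%, beside 41.5% for the whole chromosome), 27 of them in bt. The share in the other 6 genes was 39.5%, beside the 28.3% of the chromosome without the 3 genes. Kif3C, a kinesin, had a single cluster of 151 reads in coding sequence.

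The share of genes with several supported 3′ ends lay within the range of the other chromosomes. Of 68 protein-coding genes with a supported end, 11 had 2 or more (16.2%, 9.28 to 26.7%), and the other chromosomes had 15% to 20.7%. The 5 genes with the longest distance between supported ends were PMCA, PlexA, CG11155, Tdg and Mitf. In PMCA, the calcium pump of the plasma membrane, the first and last of 3 ends lay 5853 bases apart, with 309 pooled reads at the first and 6104 at the last, which was 90.1% of reads at its supported ends (89.4 to 90.8%). In PlexA, 3745 bases apart, the last end had 4087 reads (85.3%) and the first 706. CG11155 went the other way, with 169 reads (4.05%) at the last of 3 ends, 2808 bases from the first. The first ends of PMCA and PlexA lay directly before an A stretch, with 8 and 7 A among the next 10 bases. The first end of PlexA had no poly(A) signal. In Tdg, 2249 bases apart, the last end had 129 of 207 reads at supported ends (62.3%, 55.6 to 68.6%), and these 207 were 6.31% of the gene's pooled reads. In Mitf, a transcription factor of lysosome genes, the last of 3 ends, 1064 bases from the first, had 194 reads (36.0%). gw used its first end for most reads, with 16603 there and 1714 (9.36%) at the last, 941 bases away.

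Pum binds the Pumilio response element, here searched as TGTANATA (N being any base, U in place of T in the RNA), in the annotated 3′ UTRs of genes with a cluster. On the strand of the gene 28 of 75 genes of chromosome 4 held it (37.3%, 27.3 to 48.6%), against 22.7 to 31.3% on the others. Per 1000 bases of 3′ UTR there were 0.448 motifs, against 0.452 to 0.523, so the density was not higher than elsewhere. On the opposite strand of the same 3′ UTRs 46.7% of the genes of chromosome 4 held it, against 19.2 to 32.6%. These 3′ UTRs were longer and were A or T in 69.4% of bases, against 62.7 to 64.1%.

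Nearly every protein-coding gene of chromosome 4 had a cluster, 75 of 80 (93.8%, 86.2 to 97.3%), against 58.8 to 62.6% on the other chromosomes. The 5 without one were JYalpha, CG32006, Ekar, CG46466 and fd102C. The span of CG46466 in the annotation used here held clusters that name gw, with 37 and 441 pooled reads. The other 11 genes named were 4 pseudogenes and 7 noncoding RNA genes. Of these, CR32011, CR32010 and CR32009 lie side by side on the minus strand near the left end of the sequence. The 100 bases before their most read clusters were the same in all 3, and those clusters had 4885, 4922 and 6005 pooled reads. Reads from these stretches cannot be told apart, the rest of the genes was not compared, and how reads with several positions were counted is not given in the sources used here, so the values of these 3 genes are uncertain. Without them, 43.0% of the clusters of chromosome 4 lay in coding sequence.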

How the data were processed

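xRIP-3′-seq libraries were made from UV-cross-linked heads of adult flies with a Flag-HA tag on the endogenous Pum and of w1118 flies, with 3 libraries for each of 4 groups. The authors trimmed reads with fastp, mapped them with STAR 2.6.1b to dm6 with Ensembl release 93, dropped, by their methods, positions ahead of a genomic A stretch (6 A in a row, or 7 within 10 bases) unless within 25 bases of an annotated end (some clusters before one remain in the table), and kept signal up to 500 bases downstream of genes. Peaks with a depth of at least 6 in a single library were extended by up to 15 bases and intersecting clusters were merged. By their methods, clusters were further checked against high-confidence 3′ ends from long-read RNA sequencing or the annotation. Only clusters near such ends entered their length analyses. That check was not applied here, so a listed cluster, in coding sequence or elsewhere, is not shown to be an end that passed it. The deposited counts are whole reads per cluster and library. The 12 count columns share 1 heading and name no library, so none was used singly. Only their sum, here pooled reads, was used, no comparison between groups was made, and the depth of a library is not given.

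Members were the clusters of chromosome 4 that name 1 gene, each position once. The 3′-most base of each was placed with Ensembl release 115 and the RefSeq sequence of the same assembly, in the order annotated end (within 50 bases), 3′ UTR, up to 500 bases downstream, coding sequence, 5′ UTR, noncoding exon and intron. Coding positions in an annotated 3′ UTR on the same strand, and 3′ UTR positions within 50 bases of an annotated end, were left out of rates per 1000 positions. A poly(A) signal was any of 12 hexamers in the 40 bases that end at the 3′-most base. Supported ends joined clusters at annotated ends up to 50 bases apart. Chromosome arms 2L, 3L, 3R and X served for comparison and no other arm was used here. Shares have Wilson intervals, medians exact order-statistic intervals and rates exact Poisson intervals, all at 95%. They cover counting error only, and genes and clusters are not replicates. Python 3.11.15, numpy 2.4.6, pandas 2.3.3 and scipy 1.17.1 were used, and the functions were tested on simulated data.

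Members and lists were chosen with earlier results of these data known. The genes named were the 10 with the most clusters, the 10 with the most pooled reads, the 5 with the longest distance between supported ends and the genes of 5 lists, with ties going to the gene with more pooled reads, which left CaMKI out at 14 clusters. MED26, CR32009, CR32010, CR32011 and the genes without a cluster lie outside that rule and were named after their values were seen. Alternatives changed the filters, the joining of clusters, the windows, the hexamers and the genes included.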

Additional observations from a re-analysis of the deposited data

How the results depend on the processing

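Across 94 alternatives for the 11 results of chromosome 4, 79 values stayed within the interval of the value as reported and 15 moved out of it. Chromosome 4 lay outside the range of 2L, 3L, 3R and X in 85 of the 94. The other 9 were 7 values of the share of genes with 2 or more supported ends, from 15.6 to 16.9%, and the median gap and poly(A) signal share given next. With ends and joining within 25 bases the share with several ends was 13.4%, below the others. With only clusters at annotated ends, in the 3′ UTR or downstream, the median clusters per gene was 3, the share of genes with 2 or more clusters 73.2%, the median gap 58.5 bases, the share of gaps under 15 bases 24.6% and the share of clusters with a poly(A) signal 76.4%, the gap and the signal share lying inside the range of the others. Joining clusters up to 15 bases apart gave a median gap of 294.5 bases, and up to 50 bases a median of 3.5 clusters per gene. The share of clusters at annotated ends was 27% with at least 100 pooled reads, 18.0% within 25 bases, 27.3% within 100 bases and 28.7% without the 3 genes with the most clusters. AATAAA and ATTAAA alone stood before 36.7% of clusters, and a poly(A) signal before 63.7% without those 3 genes. The share of clusters in coding sequence was 34.8% without apolpp and 28.3% without the 3 genes. The alternatives for that share, and those that leave out the 3 genes or the 3 pseudogenes, were chosen after seeing the data. No paired analysis was possible because the count columns carry no library name and no result comes from a test over samples. With no depth per library, cluster detection in single libraries could not be assessed. The causes of these moves were not tested.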
